A study of Homo sapiens with 16 samples.

Results

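Ribonucleotide reductase and the enzymes that set the pools of deoxynucleoside triphosphates (dNTPs) were followed in 2 cell lines under gemcitabine. Members were taken by gene name: RRM1, RRM2, RRM2B, TYMS, DUT, DCTD, TK1, SAMHD1 and CTPS1, which are 9 of the 58735 genes in the tables. The lines were BxPC3 and PANC-1, both established from human pancreatic ductal adenocarcinoma. Each gave 4 libraries of control cells and 4 of cells given gemcitabine, a deoxycytidine analogue, so that 16 libraries fall into 4 groups. No dose or exposure time is given in the labels, no genetic change was made in any group, and nothing says whether replicates were separate cultures, so the p-values measure the spread between these libraries only.

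Ribonucleotide reductase turns ribonucleoside diphosphates into deoxyribonucleoside diphosphates, the committed step of dNTP synthesis. A large catalytic subunit, RRM1, pairs with a small radical-bearing subunit, which is RRM2 in cycling cells and RRM2B outside S phase and after DNA damage. Around it, DCTD and DUT both make dUMP, TYMS methylates dUMP to dTMP, TK1 salvages thymidine, CTPS1 makes CTP, and SAMHD1 breaks dNTPs down. Gemcitabine enters this network directly: its diphosphate inactivates ribonucleotide reductase, and DCTD can deaminate its monophosphate.

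Levels are given in FPKM (fragments scaled to the listed gene length and library size). Comparisons between genes rest on those lengths, which ran from 1861 bases for TK1 to 11517 bases for CTPS1. Changes were tested on log2(FPKM + 1), a scale that understates the change of low genes, with limma in each line over all genes that reached 1 FPKM in at least 4 libraries. All 9 members passed that filter in both lines, with between 274 and 6850 reads per member and library. A call means a Benjamini-Hochberg adjusted p under 0.05 over all tested genes. The 16 libraries held 22152034 to 37777222 reads in listed genes. SMAD4, which BxPC3 is known to lack, had no read in any BxPC3 library and 3.84 ± 0.193 FPKM (SD, n = 4) in PANC-1 controls. All 4 epithelial markers (KRT8, KRT18, KRT19 and EPCAM) were above 1 FPKM in some library of every group, with summed levels of 1886 to 2724 FPKM in BxPC3 and 336 to 756 FPKM in PANC-1. Of 10 markers of other cell types, 9 stayed under 1 FPKM in every library of both lines. The exception, the trypsinogen gene PRSS1, rose from 1.83 ± 0.234 to 14.1 ± 0.643 FPKM (SD, n = 4) in BxPC3 and from 0.434 ± 0.135 to 1.34 ± 0.250 FPKM in PANC-1.

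One library stood apart. PANC-1 gemcitabine replicate 1 departed from the remaining 3 treated libraries along GC content, with a median deviation of 0.45 (log2) in the quartile of genes richest in GC and -0.42 in the poorest. Its part in the PANC-1 changes of the members and in the counts called was measured by leaving it out. Some of the values without it are given below. PANC-1 folds of other genes and the likeness values were not recomputed without it. Nor were the shares of all tested genes by overlap of groups or by size of change.

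Gemcitabine-treated cells held more RNA of most of these enzymes. In BxPC3, 7 of the 9 members were higher, 1 (RRM2B) was lower and 1 (DCTD) did not pass, whereas 73.4% of all 12215 tested genes were called, 37.3% higher and 36.1% lower. In PANC-1, 8 members were higher and RRM2B did not pass, against 44.8% called among 12508 tested genes, 20.7% higher and 24.0% lower. Without gemcitabine replicate 1, 8 members were higher and RRM2B lower in PANC-1, against 32.8% and 37% of all tested genes. The median log2 change of the members was 0.82 in BxPC3 and 0.58 in PANC-1, beside 0.00 and -0.02 over all tested genes. A call with a log2 change of at least 1 was met by 3 members in each line: RRM2, SAMHD1 and CTPS1 in BxPC3, where 4.40% of all tested genes met it, and RRM1, RRM2 and TK1 in PANC-1, where 3.21% did. The gemcitabine libraries of the 7 higher members all lay above the 4 controls in BxPC3, and those of RRM2B below them, where the groups of 67.5% of all tested genes did not overlap (34.3% above, 33.2% below). In PANC-1 the 8 higher members did so, against 45.8% of all tested genes (21.3% above, 24.5% below). RRM2 had the largest fold in PANC-1, while in BxPC3 the folds of RRM2 (3.68 ± 0.221 SE) and SAMHD1 (3.65 ± 0.120 SE) were within their errors. SAMHD1 and CTPS1 rose far more in BxPC3 than in PANC-1.

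**Figure D1:**
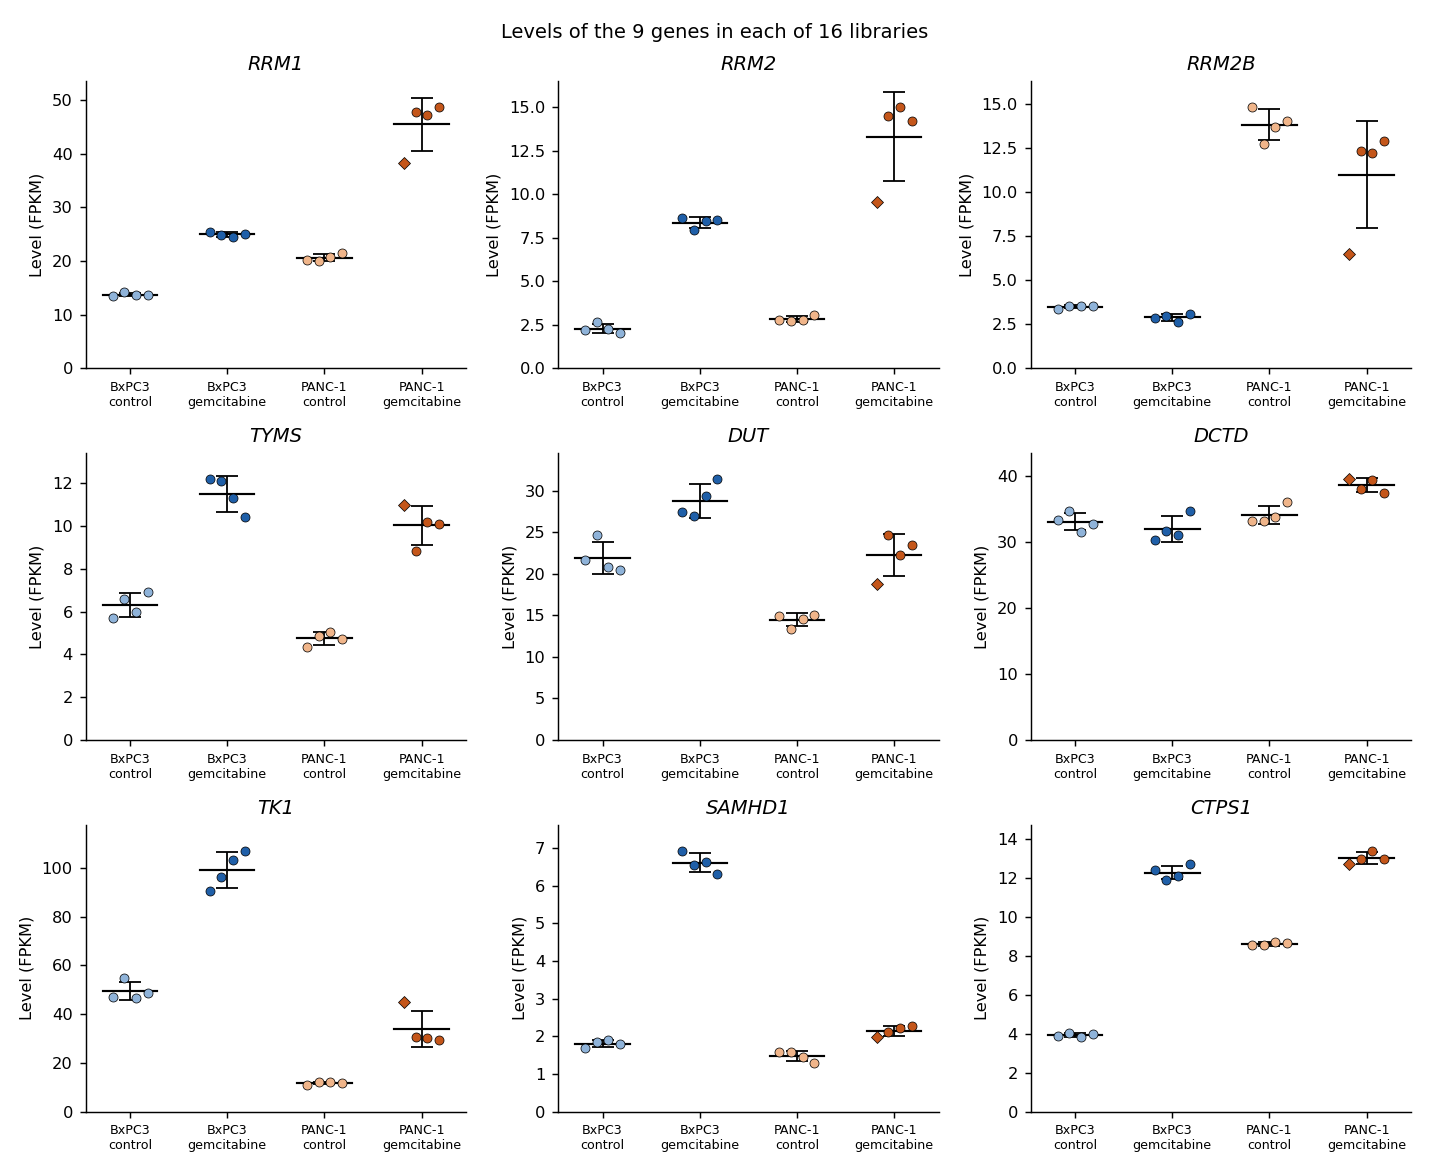
Level in FPKM (y axis, linear from 0) of each of the 9 genes in the 4 groups (x axis). Points are libraries, horizontal lines are means and bars are ± 1 SD (n = 4), and the diamond is PANC-1 gemcitabine replicate 1. RRM2 sat between 2.00 and 3.07 FPKM in all 8 control libraries and between 7.92 and 15.0 FPKM in the 8 gemcitabine libraries, and RRM2B was the member with a lower mean in both lines.

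RRM1 (ENSG00000167325, chromosome 11, 4094707 to 4138876, GRCh38) encodes the large subunit, which carries the active site and the allosteric sites that sense the pools. In BxPC3 it stood at 13.5, 14.2, 13.6 and 13.6 FPKM in the controls and at 25.4, 24.9, 24.4 and 25.1 FPKM with gemcitabine. The PANC-1 controls read 20.1, 20, 20.8 and 21.5 FPKM, and the gemcitabine libraries 38.2, 47.8, 47.3 and 48.7 FPKM. Neither line had overlapping groups, and the low value of the treated PANC-1 cells was replicate 1. RRM1 thus rose 1.82-fold ± 0.0263 (SE, n = 4) in BxPC3 (limma adjusted p = 1.12e-08) and 2.21-fold ± 0.124 in PANC-1 (adjusted p = 1.11e-05).

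RRM2 (ENSG00000171848, chromosome 2, 10120698 to 10131419) encodes the S phase small subunit, whose protein is destroyed in the course of the cell cycle. BxPC3 controls held 2.21, 2.63, 2.26 and 2.00 FPKM, and treated cells 8.60, 7.92, 8.45 and 8.50 FPKM. PANC-1 controls held 2.75, 2.69, 2.75 and 3.07 FPKM, against 9.53, 14.5, 15.0 and 14.2 FPKM with gemcitabine. Every treated library lay above every control of either line. The rise was 3.68-fold ± 0.221 (SE, n = 4) in BxPC3 (log2 change 1.52 ± 0.06 SE, limma adjusted p = 9.66e-09) and 4.73-fold ± 0.475 in PANC-1 (log2 change 1.89 ± 0.13 SE, adjusted p = 6.77e-06). Without replicate 1, the treated PANC-1 mean was 14.6 ± 0.402 FPKM (SD, n = 3) and the rise 5.18-fold.

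RRM2B (ENSG00000048392) encodes the alternative small subunit, known as a p53-inducible gene, and both lines carry mutant p53. Controls of BxPC3 held 3.37, 3.55, 3.50 and 3.53 FPKM, and treated cells 2.86, 2.98, 2.64 and 3.09 FPKM, a log2 change of -0.21 ± 0.05 (SE, n = 4, limma adjusted p = 0.00233) with groups that did not overlap. Controls of PANC-1 held more, at 14.8, 12.7, 13.7 and 14.0 FPKM. The treated PANC-1 libraries read 6.45, 12.3, 12.2 and 12.9 FPKM, which overlapped the controls, and the change did not pass (log2 change -0.35 ± 0.19 SE, 95% interval -0.77 to 0.08, limma adjusted p = 0.163). Replicate 1, at 6.45 FPKM, decided that value. Without it the change was -0.13 ± 0.05 SE and was called (limma adjusted p = 0.0284), and after removal of the trend with GC content it was -0.37 (adjusted p = 0.00176). Other p53 targets moved in both directions. In BxPC3, 4 of 17 tested were higher and 11 lower, beside 37.3% and 36.1% of all tested genes. In PANC-1, 8 of 17 were higher and 2 lower, beside 20.7% and 24.0%. Without replicate 1 the PANC-1 counts were 9 and 3, beside 32.8% and 37%. With BxPC3 given first, CDKN1A was up 2.01-fold and 3.04-fold, and SESN2 stood at 0.483 and 1.5 times its control level.

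The sequence before the transcription start is shown for RRM1, RRM2 and TYMS, with the letters of well-known cell cycle promoter elements marked. These genes rose in both lines, as did DUT, TK1, SAMHD1 and CTPS1, whose windows are described after them. Windows are the 250 bases before the first listed RefSeq start (GRCh38.p14, 5′ to 3′ on the gene's strand), at chr11:4094435-4094684 (+), chr2:10122489-10122738 (+) and chr18:657403-657652 (+). Windows of 8 of the 9 members were searched, and that of RRM2B was not. Capitals mark CCAAT (the letters bound by NF-Y), TTTGAA (the letters of the cell cycle homology region) and the E2F-type TTTNNCGC, each searched on both strands.
RRM1: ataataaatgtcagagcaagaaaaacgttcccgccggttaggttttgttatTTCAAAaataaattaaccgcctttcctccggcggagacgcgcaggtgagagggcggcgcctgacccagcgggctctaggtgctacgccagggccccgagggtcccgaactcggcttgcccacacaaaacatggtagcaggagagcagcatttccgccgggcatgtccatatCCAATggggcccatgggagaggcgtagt
RRM2: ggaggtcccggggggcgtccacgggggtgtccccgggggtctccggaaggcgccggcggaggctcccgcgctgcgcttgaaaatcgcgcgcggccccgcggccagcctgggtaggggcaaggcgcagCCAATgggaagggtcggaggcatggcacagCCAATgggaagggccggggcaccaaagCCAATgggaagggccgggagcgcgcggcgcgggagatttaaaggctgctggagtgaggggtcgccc
TYMS: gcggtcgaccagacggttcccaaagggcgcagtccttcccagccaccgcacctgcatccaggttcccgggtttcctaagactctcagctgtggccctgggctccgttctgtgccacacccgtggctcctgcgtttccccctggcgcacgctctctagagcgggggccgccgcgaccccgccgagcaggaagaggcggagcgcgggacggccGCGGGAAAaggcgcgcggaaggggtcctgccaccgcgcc
The RRM2 window held CCAAT 3 times, starting 123, 93 and 66 bases before the start and each time running on as CCAATGGGAAGGG. The RRM1 window held 1 CCAAT and 1 TTTGAA, and the TYMS window 1 E2F-type match, GCGGGAAA, on the reverse strand. Of 27305 promoter windows of the same length, 33% held CCAAT, 13.6% TTTGAA and 5.93% the E2F-type letters. The SAMHD1 window held 2 CCAAT matches, and those of DUT, DCTD, TK1 and CTPS1 held none of the 3. The other listed RRM2 start had 1 CCAAT before it. For TK1 another listed start had 2 CCAAT matches before it, and for DUT a later one had 2 E2F-type and 2 TTTGAA matches. These are matches of letters and not measured binding.

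Because the subunits work as a complex, their levels were also compared within each library, where the scaling of libraries cancels. RRM2 stood at 0.166 ± 0.0154 of RRM1 (SD, n = 4) in BxPC3 controls and at 0.335 ± 0.0121 with gemcitabine. In PANC-1 the ratio went from 0.137 ± 0.00451 to 0.291 ± 0.0295. The groups did not overlap in either line, with controls at 0.132 to 0.185 and treated libraries at 0.249 to 0.346, so RRM2 gained on RRM1 by 2.03-fold and 2.13-fold.

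The balance of the alternative small subunits turned over. In controls RRM2 was the lesser of them, at 0.652 ± 0.0706 of the RRM2B level in BxPC3 and 0.205 ± 0.0145 in PANC-1 (SD, n = 4). With gemcitabine it exceeded RRM2B, at 2.90 ± 0.247 and 1.25 ± 0.162 times. Single PANC-1 libraries read 0.186, 0.211, 0.202 and 0.220 in controls and 1.48, 1.18, 1.23 and 1.1 with gemcitabine, so the replicate that stands apart had the highest treated ratio and the crossing of 1 held in all 4. As a share of the summed FPKM of both, RRM2 made up 39.4% ± 2.59 of BxPC3 controls and 74.3% ± 1.61 of treated cells, against 17% ± 1 and 55.4% ± 3.08 in PANC-1. Where a ratio lies against 1 rests on the listed lengths, 5323 bases for RRM2 and 5548 bases for RRM2B. Their GC contents differ, at 45.8% and 36.4%. Replicate 1 read 0.57 (log2) below the mean of its group's other libraries for RRM2 and 0.85 below for RRM2B. Its departure thus did not cancel in this ratio. The ratios are descriptions without a test.

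**Figure D2:**
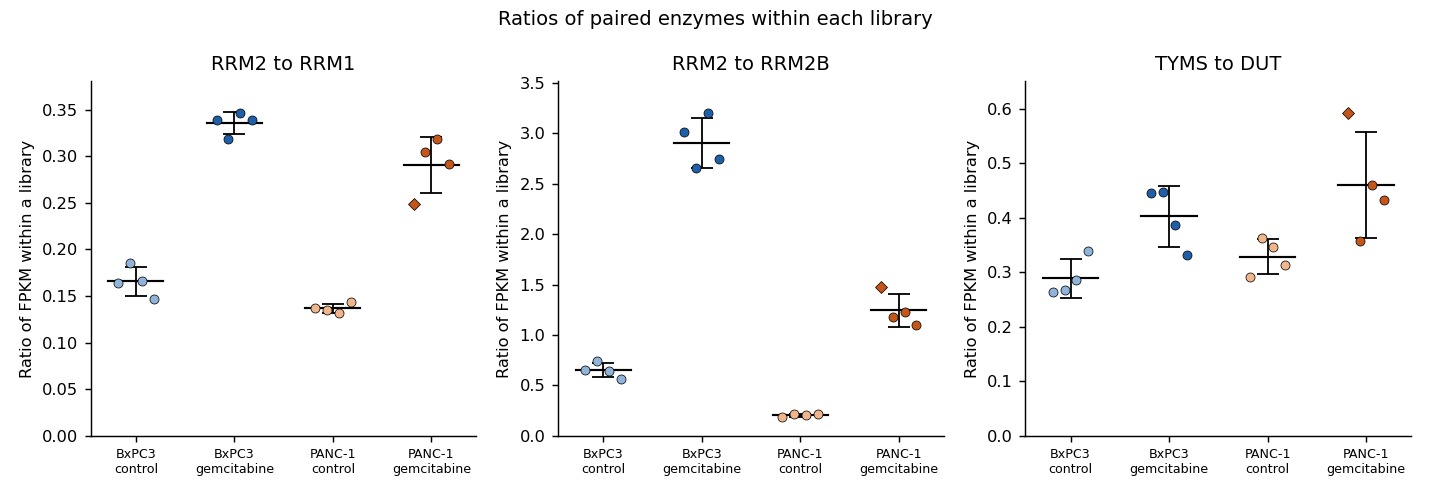
Ratio of FPKM within a library (y axis, linear from 0) for RRM2 to RRM1, RRM2 to RRM2B and TYMS to DUT in the 4 groups (x axis). Points are libraries, lines are means, bars are ± 1 SD (n = 4), and the diamond is PANC-1 gemcitabine replicate 1. RRM2 to RRM2B lies below 1 in all 8 control libraries and above 1 in all 8 treated ones, while TYMS to DUT overlaps between control and gemcitabine in both lines.

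Among the enzymes of thymidylate supply, DUT, TYMS and TK1 rose in both lines and DCTD changed least. DCTD (ENSG00000129187, chromosome 4, 182890060 to 182917936), the dCMP deaminase, held 33.3, 34.7, 31.6 and 32.7 FPKM in BxPC3 controls and 30.4, 31.7, 31.1 and 34.8 FPKM with gemcitabine, overlapping groups with a log2 change of -0.05 (95% interval -0.16 to 0.06, limma adjusted p = 0.391) that turned to 0.04 with TPM scaling. In PANC-1 it went from 33.2, 33.2, 33.8 and 36.1 FPKM to 39.6, 38.1, 39.4 and 37.4 FPKM, 1.13-fold ± 0.0275 (SE, n = 4, limma adjusted p = 0.0244). That small rise lost its call when any of control replicates 1 to 3 or gemcitabine replicates 2 and 3 was left out (adjusted p = 0.0534 to 0.0776).

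DUT (ENSG00000128951, chromosome 15, 48331011 to 48343373) encodes the dUTPase that keeps uracil out of DNA. BxPC3 went from 21.7, 24.7, 20.8 and 20.4 FPKM to 27.4, 27.0, 29.3 and 31.4 FPKM, and PANC-1 from 14.9, 13.3, 14.6 and 15.0 FPKM to 18.7, 24.7, 22.2 and 23.4 FPKM. The groups lay apart in both lines, and the rises of 1.31-fold ± 0.0744 (SE, n = 4, limma adjusted p = 5.17e-04) and 1.54-fold ± 0.098 (adjusted p = 7.25e-04) were among the smaller ones. Named pseudogenes of DUT reached at most 0.490 FPKM and those of RRM2 at most 0.304 FPKM in any library.

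TYMS (ENSG00000176890, chromosome 18, 657604 to 673578), thymidylate synthase and the target of fluoropyrimidines, held 5.70, 6.60, 5.96 and 6.93 FPKM in BxPC3 controls. With gemcitabine it held 12.2, 12.1, 11.3 and 10.4 FPKM, a rise of 1.83-fold ± 0.105 (SE, n = 4, limma adjusted p = 2.67e-06). PANC-1 went from 4.36, 4.84, 5.06 and 4.71 FPKM to 11, 8.82, 10.2 and 10.1 FPKM, or 2.12-fold ± 0.117 (adjusted p = 1.53e-05). All treated libraries lay above all controls. The antisense genes TYMSOS and ENOSF1 overlap TYMS, at up to 1.65 and 2.70 FPKM, and counting by strand is not recorded, so a part of the TYMS reads may be theirs. TYMS stood at 0.289 ± 0.0354 of DUT in BxPC3 controls (SD, n = 4) and 0.402 ± 0.0555 with gemcitabine, and at 0.329 ± 0.0322 and 0.461 ± 0.0976 in PANC-1, with overlapping groups in both lines.

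TK1 (ENSG00000167900, chromosome 17, 78174075 to 78187233) encodes the cytosolic thymidine kinase of the salvage route, an S phase marker. In BxPC3 it was the highest member, at 47.2, 54.8, 46.7 and 48.7 FPKM in controls and 90.4, 96.4, 103 and 107 FPKM with gemcitabine. PANC-1 controls held 11, 12.1, 12.1 and 11.8 FPKM, and treated cells 44.8, 30.5, 30.4 and 29.6 FPKM. The groups were apart in each line, and here the replicate that stands apart was the high one. TK1 rose 2.01-fold ± 0.108 (SE, n = 4, limma adjusted p = 4.71e-07) and 2.88-fold ± 0.318 (adjusted p = 3.04e-05). Without that replicate the PANC-1 rise was 2.56-fold ± 0.0602.

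CTPS1 (ENSG00000171793, chromosome 1, 40979335 to 41012565) encodes the CTP synthase that proliferating cells rely on. BxPC3 controls held 3.91, 4.06, 3.83 and 3.98 FPKM and treated cells 12.4, 11.9, 12.1 and 12.7 FPKM. PANC-1 began higher, at 8.54, 8.54, 8.72 and 8.64 FPKM, and reached 12.7, 13, 13.4 and 13 FPKM. Control and treated groups lay far apart in both lines, with little spread within each. The rise was 3.11-fold ± 0.0577 (SE, n = 4, limma adjusted p = 6.98e-10) in BxPC3 and 1.51-fold ± 0.0198 (adjusted p = 3.24e-05) in PANC-1, from unlike control levels to treated levels of 12.3 ± 0.339 and 13 ± 0.312 FPKM (SD, n = 4). Its paralog CTPS2 went the opposite way in BxPC3 (0.862 of control, limma adjusted p = 0.0115) and rose 1.33-fold in PANC-1 (adjusted p = 0.00142).

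SAMHD1 (ENSG00000101347, chromosome 20, 36889773 to 36951901) encodes the dNTP triphosphohydrolase, which breaks dNTPs down and is known to respond to interferon in some cells. In FPKM it was the lowest member in controls of both lines, at 1.68, 1.84, 1.91 and 1.81 in BxPC3 and 1.59, 1.59, 1.46 and 1.3 in PANC-1. That place rests on its listed length of 11261 bases, against 5323 for RRM2. RRM2 had 1604 and 1479 reads in the BxPC3 and PANC-1 controls, and SAMHD1 more, at 2710 and 1651. With gemcitabine BxPC3 held 6.93, 6.56, 6.63 and 6.32 FPKM, but PANC-1 only 1.98, 2.11, 2.23 and 2.27 FPKM. Groups lay apart in both lines. The rise was 3.65-fold ± 0.120 (SE, n = 4, limma adjusted p = 2.01e-09) in BxPC3 and 1.45-fold ± 0.0805 (adjusted p = 0.00191) in PANC-1. Of the interferon-stimulated genes listed, all 14 tested were called higher in BxPC3 (median log2 change 1.72) and all 12 tested in PANC-1 (median 0.89). Over all tested genes 37.3% and 20.7% were called higher. In each line some of the listed genes passed the filter only through gemcitabine libraries, which fixed their direction. IFIT1 in BxPC3, at most 0.675 FPKM in controls, is an example. Listed genes that missed the filter are not in these counts. Whether the interferon-stimulated genes and the SAMHD1 values are linked was not tested.

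The difference of the gemcitabine effect between lines was tested as an interaction over all 16 libraries, where 51.8% of 14134 tested genes were called, 25.2% with a larger value in PANC-1 and 26.6% in BxPC3. Of the members, 4 were larger in PANC-1, 2 in BxPC3 and 3 did not pass. SAMHD1 and CTPS1 rose more in BxPC3, with differences (PANC-1 minus BxPC3) of -1.09 ± 0.07 SE (log2, limma adjusted p = 2.72e-09) and -0.88 ± 0.05 SE (adjusted p = 1.32e-09). Both kept their sign and their call under the 9 other settings and without any single library. RRM1 (0.28 ± 0.09 SE, limma adjusted p = 0.0148), RRM2 (0.37 ± 0.15 SE, adjusted p = 0.0461), TK1 (0.43 ± 0.15 SE, adjusted p = 0.0243) and DCTD (0.22 ± 0.07 SE, adjusted p = 0.0152) changed more in the upward direction in PANC-1. These 4 are less settled. The RRM2 call was lost when any one of 13 of the 16 libraries was left out (adjusted p = 0.0587 to 0.0963), although without PANC-1 gemcitabine replicate 1 the difference was 0.51 ± 0.08 SE (limma adjusted p = 2.62e-05). RRM1 lost its call with TPM scaling (adjusted p = 0.124). TK1 lost its call without BxPC3 control replicate 2 or BxPC3 gemcitabine replicate 1 (adjusted p = 0.0521 and 0.052), and without PANC-1 gemcitabine replicate 1 its difference was 0.29. TYMS (0.16, 95% interval -0.05 to 0.38), DUT (0.20, interval -0.04 to 0.45) and RRM2B (-0.14, interval -0.57 to 0.29) did not pass. Without PANC-1 gemcitabine replicate 1 DUT passed, at 0.28 (limma adjusted p = 0.0138).

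**Figure D3:**
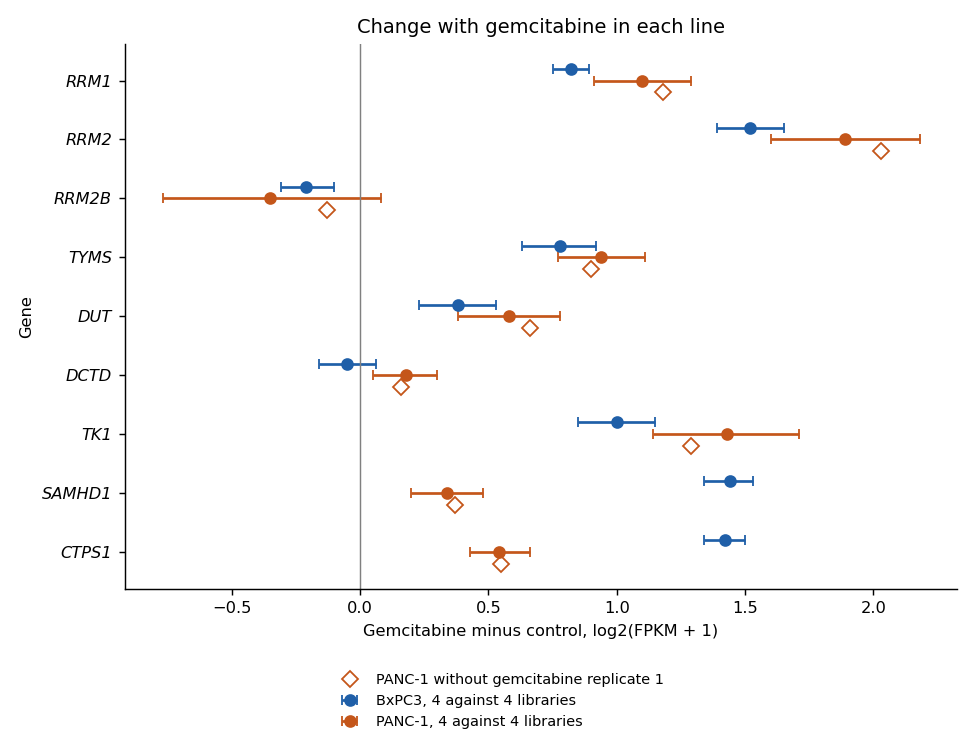
Change with gemcitabine on the log2(FPKM + 1) scale (x axis) for each gene (y axis). Filled points are the estimate over 4 against 4 libraries with its 95% interval, blue for BxPC3 and orange for PANC-1, and open diamonds are PANC-1 without gemcitabine replicate 1. SAMHD1 (1.44 against 0.34) and CTPS1 (1.42 against 0.54) lie farther right in BxPC3, and RRM2B is the gene left of 0 in both lines.

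Before treatment the lines differed in which enzymes were abundant. The lines lie in separate tables that may have been scaled separately, so levels across them are set side by side without a test. In BxPC3 controls the order from high to low was TK1 (49.4 ± 3.73 FPKM, SD, n = 4), DCTD (33.1 ± 1.28), DUT (21.9 ± 1.94), RRM1 (13.7 ± 0.327), TYMS (6.30 ± 0.564), CTPS1 (3.94 ± 0.0976), RRM2B (3.49 ± 0.0782), RRM2 (2.27 ± 0.260) and SAMHD1 (1.81 ± 0.098), and no neighbours in it overlapped. In PANC-1 controls it was DCTD (34.1 ± 1.40 FPKM), RRM1 (20.6 ± 0.705), DUT (14.5 ± 0.777), RRM2B (13.8 ± 0.856), TK1 (11.8 ± 0.505), CTPS1 (8.61 ± 0.0914), TYMS (4.74 ± 0.295), RRM2 (2.82 ± 0.172) and SAMHD1 (1.48 ± 0.138). Only DUT and RRM2B overlapped there.

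The widest gaps were those of TK1, 4.20 times higher in BxPC3, and RRM2B, 3.95 times higher in PANC-1. CTPS1 was 2.18 times and RRM1 1.5 times higher in PANC-1, RRM2 was 1.24 times higher there, and DUT 1.51 times and TYMS 1.33 times higher in BxPC3. Over the genes tested in the interaction, the median was 0.21 higher in PANC-1 controls, on the log2(FPKM + 1) scale of group means. A ratio as small as that of RRM2 therefore does not set it apart from other genes. DCTD ranges overlapped. When each library was scaled to the same sum, as in TPM, every PANC-1 to BxPC3 ratio rose: RRM2B to 4.74, RRM2 to 1.49, TYMS to 0.904 and SAMHD1 from 0.82 to 0.984, which left its levels in the lines close together. With gemcitabine the order shifted as well. SAMHD1 moved above RRM2B in BxPC3, RRM1 took first place in PANC-1 with a range that overlapped that of DCTD, and RRM2 climbed to the level of CTPS1 and RRM2B in PANC-1, again with overlapping ranges.

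Other genes of deoxynucleotide metabolism were grouped by function. Beside the counts of these groups, 37.3% of all tested genes were called higher and 36.1% lower in BxPC3. In PANC-1 the shares were 20.7% and 24.0%, or 32.8% and 37% without gemcitabine replicate 1. Of 7 nucleotide kinases, which phosphorylate nucleotides step by step, 5 were higher and 1 lower in BxPC3, and 1 of 5 tested was higher in PANC-1 (4 without gemcitabine replicate 1). CMPK2, a mitochondrial kinase also induced by interferon, went from 0.206 ± 0.0444 to 2.37 ± 0.217 FPKM (SD, n = 4) in BxPC3, and the thymidylate kinase DTYMK rose 1.67-fold there. NME1 and NME2, nucleoside diphosphate kinases with closely alike sequences, rose 2.08-fold and 4.4-fold in BxPC3, where the split of reads between them is uncertain. CMPK2 and NME2 were under 1 FPKM in every BxPC3 control. They passed the filter there only through gemcitabine libraries, which fixed their direction. Of 3 other salvage kinases, 1 was higher and 1 lower in BxPC3, and 0 were higher and 1 lower in PANC-1 (1 and 1 without replicate 1). TK2, the mitochondrial thymidine kinase, fell to 0.762 of control in BxPC3 (limma adjusted p = 4.54e-06) and stood at 1.03 times control in PANC-1 (adjusted p = 0.664), unlike TK1.

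SHMT1, a serine hydroxymethyltransferase of the folate cycle, rose 1.13-fold in BxPC3 (limma adjusted p = 0.0104) and fell to 0.788 of control in PANC-1 (adjusted p = 0.00579). Of 9 tested genes of nucleotide breakdown and pool sanitation, 7 were higher and 2 lower in BxPC3, against 3 and 2 in PANC-1 (3 and 4 without replicate 1). PNP, the purine nucleoside phosphorylase, rose 3.19-fold and 1.14-fold, and NUDT1, which hydrolyses oxidized purine dNTPs, 1.38-fold and 2.22-fold. Regulators and electron donors of the reductase were higher for 5 of 6 genes and lower for 1 in BxPC3, and for 2 and 1 in PANC-1 (3 and 1 without replicate 1). GLRX, listed among them, was under 1 FPKM in every PANC-1 control. It passed the filter there only through gemcitabine libraries, which fixed its direction. CCNF, the cyclin F that directs RRM2 protein to destruction, rose 3.05-fold and 2.07-fold, so both RRM2 and the RNA of this degradation factor were higher. AHCYL1, the reductase-inhibiting protein IRBIT, fell to 0.822 of control in BxPC3 (limma adjusted p = 9.09e-04) and 0.558 in PANC-1 (adjusted p = 2.77e-06). Thioredoxin reductase TXNRD1, which keeps a donor of the reductase reduced, went from 10.6 ± 0.130 to 28.3 ± 1.12 FPKM in BxPC3 and stood at 111 ± 1.18 and 106 ± 9.06 FPKM in PANC-1.

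Genes of S phase replication moved with the members. Of 29 tested, 28 were higher in BxPC3 (median log2 change 0.70), and 24 were higher and 1 lower in PANC-1 with a median of 0.59 (25 and 2, median 0.66, without gemcitabine replicate 1). MCM4, a subunit of the replicative helicase, rose 2.16-fold and 2.06-fold, and the licensing factor CDC6 3.40-fold and 2.04-fold. Of all tested genes 37.3% were called higher in BxPC3 and 20.7% in PANC-1 (32.8% without gemcitabine replicate 1). All 15 genes of G2 and mitosis were higher in both lines, with medians of 1.15 and 1.52. A gene of that list was under 1 FPKM in every BxPC3 control. It passed the filter there only through gemcitabine libraries, which fixed its direction. The median member change, 0.82 and 0.58, lay near that of the replication genes. In bulk RNA a larger share of cells in S phase and more RNA per cell cannot be told apart, and the part of the cell cycle in the member changes was not tested.

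Likeness of pattern was measured as Pearson's r over the 16 libraries, each line centred on its own mean, against 9754 other protein-coding genes tested in both lines. All libraries share the same treatment contrast, so high values are common and are given as a description. The 4 genes nearest to RRM2 were its partner RRM1 (r = 0.998), the kinetochore gene NDC80 (0.997), the centromeric histone gene CENPA (0.994) and the Fanconi anaemia gene FANCI (0.994). Nearest to RRM2B were RAB6A (0.973), NDFIP2 (0.970), SEC62 (0.970) and COQ10B (0.967), with a GC content of 35.0% to 41.8% (RRM2B 36.4%) and all lower with gemcitabine in both lines (log2 changes of -0.10 to -0.37, called or not). Nearest to SAMHD1, each at 0.994, were ADAMTS1, THBS1, DKK1 and GLIPR1, whose log2 changes were 1.88 to 2.83 in BxPC3 and 0.32 to 0.57 in PANC-1.

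The members themselves showed how PANC-1 gemcitabine replicate 1 departed from its group. RRM2B, the member with the lowest GC content (36.4%), read 0.85 (log2) below the mean of the other 3 libraries. TK1, with the highest (62.8%), read 0.56 above it. RRM2 (45.8%) read 0.57 below, RRM1 (43.5%) 0.32 below and DUT (44.2%) 0.31 below, whereas CTPS1 (43.2%) read only 0.05 below at nearly the same GC content.

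**Figure D4:**
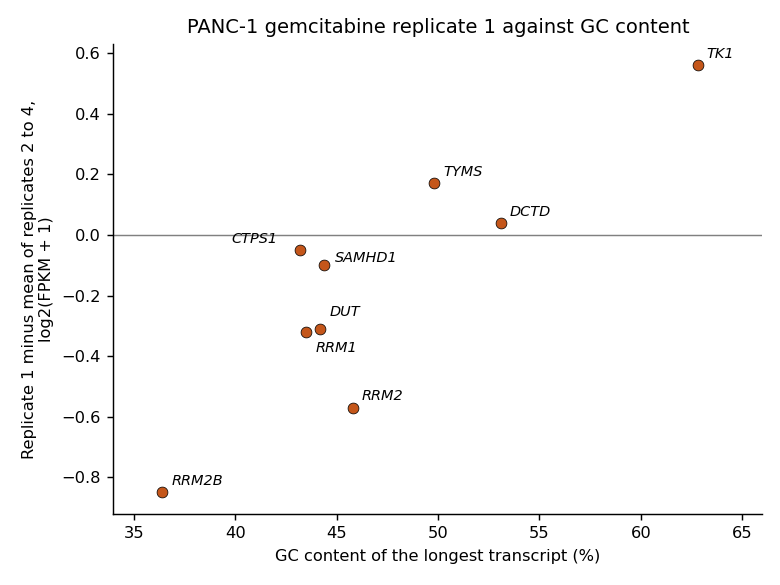
Deviation of PANC-1 gemcitabine replicate 1 from the mean of the other 3 treated libraries on the log2(FPKM + 1) scale (y axis) against GC content in percent, taken from each gene's longest GENCODE transcript (x axis). Points are the 9 genes. RRM2B lies lowest, at -0.85, and TK1 highest, at 0.56, while RRM2 lies at -0.57 with a GC content close to that of SAMHD1, which lies at -0.10.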

How the data were processed

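Poly-A-enriched RNA was isolated with a column kit, per the labels' protocols. FPKM per gene and library were deposited by the authors in a separate table for each line, together with the length of each gene in bases (other unit). The submitters' processing notes name CASAVA and HISAT2 and give no version. They also name mm10, yet all 58735 genes have human identifiers with GENCODE 29 coordinates, so GRCh38 is given. Read counter and strand setting: not given in the sources used here.

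Whole reads were recovered from FPKM and length for 100.0% of values (tolerance 0.02 reads). Their sum per library, over the size implied by the value of 1 read, was 0.963 to 1.05. The floor of 3 reads is 0.0803 to 0.138 FPKM at 1 kb, for counting error only. Libraries of a group differed beyond counting noise (lowest chi-square of a pair, divided by its degrees of freedom, 2.074).

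Groups came from sample titles. limma 3.58.1 in R 4.3.3 (trend, robust) was run on log2(FPKM + 1) per line and as an interaction, with Benjamini-Hochberg adjustment at 0.05 over all tested genes, and was tested on simulated data. Folds are ratios of mean FPKM. Each fit was repeated without the expression filter, with 0.1 as pseudocount, under TPM or median-ratio scaling, with plain limma, on protein-coding genes, with a replicate block, by limma-voom on the recovered reads, and leaving out each library. Removal of each library's GC trend was added after the data were seen. Members and lists were chosen with earlier results of these data known. Named were all members, up to 4 genes with the smallest p of a list, and the 4 genes most alike to RRM2, RRM2B and SAMHD1. Protein motifs were not analysed here. One listed gene is not reported here. Figures used matplotlib 3.10.9, tables pandas 2.3.3 and intervals scipy 1.17.1.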

Additional observations from a re-analysis of the deposited data

Results flagged for a closer look

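Of 36 groups of 4 libraries (9 members in 4 groups), 6 held a library farther from the others than Dixon's 95% critical value allows, where chance gives about 1 in 20. PANC-1 gemcitabine replicate 1 gave 4 of them: RRM1 at 38.2 FPKM (others 47.3 to 48.7), RRM2 at 9.53 FPKM (others 14.2 to 15.0), RRM2B at 6.45 FPKM (others 12.2 to 12.9) and TK1 at 44.8 FPKM (others 29.6 to 30.5). BxPC3 control replicate 2 was high for RRM1, at 14.2 FPKM against 13.5 to 13.6, and PANC-1 control replicate 4 was high for RRM2, at 3.07 FPKM against 2.69 to 2.75.

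The effect of gemcitabine was called different between lines, by the limma interaction, for 6 of the 9 members. Of all 14134 tested genes, 51.8% were called. The calls of RRM1, RRM2, DCTD and TK1 were each lost under some other setting. PANC-1 minus BxPC3 was -1.09 (log2) for SAMHD1, -0.88 for CTPS1, 0.28 for RRM1, 0.37 for RRM2, 0.22 for DCTD and 0.43 for TK1.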

How the results depend on the processing

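In BxPC3 the counts of members called, 7 higher and 1 lower, were the same under all 9 alternatives and without any single library. DCTD, not called in BxPC3, turned from -0.05 to 0.04 (log2) with TPM scaling. In PANC-1 the count called lower went from 0 to 1 (RRM2B) with the GC trend removed and was 0 to 1 over the libraries left out, 1 without gemcitabine replicate 1. For the difference between lines, the members larger in PANC-1 went from 4 to 2 with no filter, to 2 with TPM scaling and to 1 (RRM1) with the replicate number as a block, and ranged from 2 to 5 over the libraries left out, while SAMHD1 and CTPS1 stayed larger in BxPC3 throughout. The RRM2B difference (-0.23 to 0.07 over the libraries left out) turned to 0.07 without PANC-1 gemcitabine replicate 1 (limma adjusted p = 0.357). Same-numbered control and treated libraries did not deviate together (r from -0.333 to 0.181 in BxPC3 and -0.376 to 0.189 in PANC-1), so the numbers were not taken as pairs. Within single lines the replicate block changed 1 call, that of DCTD in PANC-1 (log2 change 0.18, limma adjusted p = 0.11), and the difference lost RRM2 (adjusted p = 0.0576), DCTD (adjusted p = 0.0604) and TK1 (adjusted p = 0.0502). The cause of these changes was not tested. The gain of RRM2 on RRM2B ranged from 4.27-fold to 4.67-fold in BxPC3 and 5.73-fold to 6.34-fold in PANC-1 over the libraries left out. Over all tested genes in PANC-1, 2595 were called higher and 3007 lower, and 4102 and 4626 without gemcitabine replicate 1. Depth limits none of the members, which had at least 274 reads per library.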
